A study of Mus musculus with 2 samples.

Results

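Type I interferon-stimulated genes, a fixed set of 35 genes switched on in cells that sense type I interferon, were followed through the leukocytes of mouse tumours. Members were taken by name from the gene list of the count tables, which held 33 of the 35 among 32285 genes, each on 1 row; Mx1 and Mx2 are not analysed here. The tables hold unique molecular identifiers (UMIs, each standing for 1 captured transcript) of single cells that were sorted for the leukocyte surface protein CD45 and captured in droplets. There were 2 libraries, 1 from WT tumours and 1 from tumours labelled Ythdf2 KO, all in C57BL/6 mice, and Ythdf2 is a reader protein that binds transcripts carrying the m6A mark. The labels speak of knockout tumours while the series' design text speaks of cKO mice, so which cells lost Ythdf2, by which Cre or guide, and how many animals were pooled are not given in the sources used here.

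Type I interferons are secreted proteins that bind a receptor shared by nearly all cells. The receptor's kinases activate Stat2, which acts with Irf9 in a complex that binds interferon-stimulated response elements in promoters and raises the transcription of antiviral genes. In tumours the same programme is known from myeloid cells and T cells, where it accompanies antigen presentation and, when prolonged, suppression of T cell responses.

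The response elements are shown for 5 members, all with a match, because the same motif stood before genes whose levels in the 2 libraries differed in different ways. Bases upstream of the transcription start are from RefSeq, build GRCm38.p6, read 5′ to 3′ on the gene's strand. Capitals mark matches to GAAANNGAAA on either strand, so that a match on the opposite strand reads as its reverse complement. They lie at chr4:156200855-156200916 (minus strand) for Isg15, chr19:34640765-34640833 (plus) for Ifit1, chr19:34583353-34583436 (plus) for Ifit3, chr19:34607749-34607832 (plus) for Ifit3b and chr12:26456543-26456592 (minus) for Rsad2.
Isg15: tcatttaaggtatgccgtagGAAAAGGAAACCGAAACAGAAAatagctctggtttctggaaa
Ifit1: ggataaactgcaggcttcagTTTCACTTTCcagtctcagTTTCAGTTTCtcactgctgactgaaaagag
Ifit3: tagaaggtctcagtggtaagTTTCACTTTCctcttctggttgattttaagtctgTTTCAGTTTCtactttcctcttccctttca
Ifit3b: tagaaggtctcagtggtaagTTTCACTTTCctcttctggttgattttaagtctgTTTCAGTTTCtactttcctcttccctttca
Rsad2: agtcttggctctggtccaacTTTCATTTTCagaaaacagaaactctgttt

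The Isg15 window held 3 overlapping matches and the Ifit1 window 2 separate ones. The stretches of Ifit3 and Ifit3b, neighbouring copies of a gene, were the same letter for letter, while 201 of 268 aligned bases (75%) of their whole promoter windows were identical. A promoter window of 300 bases was found for 26 of the 33 members, and 15 of those windows (57.7%) held the motif on either strand, beside 1079 of 27025 genes (3.99%). In 12 members a match lay upstream of the start, beside 936 genes (3.46%). The windows of Herc6, Ifit2, Oasl1, Oasl2, Cmpk2, Isg20, Irf7, Ifi44, Xaf1, Ifi35 and Slfn4 held no match. A match is a run of letters, not a measured binding site.

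Several members are neighbours in the genome, by the GRCm38 annotation of GENCODE. The 5 IFIT genes lie together at chr19:34550694-34650009, Oas1a, Oas2 and Oas3 at chr5:120730333-120907521, Oasl1 and Oasl2 at chr5:114896936-114937915, and Rsad2 beside Cmpk2 at chr12:26442746-26479837. Some share sequence with other genes, so their counts are uncertain: 51.2% of the stretches of 50 bases in Ifit3 transcripts also occur in Ifit3b, 44.5% of those of Ifit3b in Ifit3, 57.6% of those of Oas1a in Oas1g, and 14.8% of those of Ifi204 in Ifi211. The remaining members stood at 12.5% or lower, with 3.96% for Isg15.

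After filtering, 20415 WT barcodes and 15844 of the library labelled Ythdf2 KO remained, with 168317001 and 133055191 UMIs and median depths of 5674 and 5753 UMIs. Ythdf2 itself stood at 48.4 and 46.1 UMIs per 1000000 UMIs (CPM) over these leukocytes, a ratio of 0.952 (0.920 to 0.984), and its ratio ran from 0.630 in gamma-delta T cells to 1.78 in neutrophils, so its level in the sorted cells is no check of the genotype label, and groups are named by their labels throughout. Cells were typed from marker genes that are not members. The gates placed 62.8% (WT) and 65.9% of barcodes in 15 types, of which 11 had at least 50 cells in each library. Every marker on each type's own list was detected in both libraries, except Trdc in CD8 T cells, where its absence is part of the gate. The libraries share 101 barcode sequences. With 1 library per genotype there is no replicate and no test of the genotype, and every interval is an exact 95% interval that covers counting error only.

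The members were highest in myeloid cells of these tumours. Their summed level in WT was 20985 CPM in neutrophils, 17954 CPM in classical monocytes, 13958 CPM in macrophages and 12721 CPM in patrolling monocytes. Among the 11 types with enough cells, plasmacytoid dendritic cells (DC), known as strong interferon producers, came next at 8944 CPM. Mature DC stood at 6517 CPM, and the lymphocytes among the 11 ranged from 6413 CPM in gamma-delta T cells to 2639 CPM in NK cells. The order of neighbours was outside counting error except for mature DC over gamma-delta T cells, at a ratio of 1.02 (0.992 to 1.04). Gated types with fewer cells were not ranked. In WT, the conventional DC types cDC2 and cDC1 stood at 10518 CPM (40 cells) and 7314 CPM (38 cells). Regulatory T cells were at 10015 CPM (50 cells) and CD4 T cells at 9155 CPM (48 cells). In the other library these types were, in the same order, at 13035, 6423, 8983 and 9472 CPM.

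In the library labelled Ythdf2 KO the order was the same at both ends, with neutrophils first at 28166 CPM and NK cells last at 2405 CPM. By pooled sums patrolling monocytes (12885 CPM) lay just above macrophages (12671 CPM). This swap was not seen when each cell was thinned at random to the same number of UMIs. Macrophages then held a mean of 14.0 member UMIs per cell and patrolling monocytes 12.8, against 15.9 and 12.8 in WT. Mature DC moved below gamma-delta T and the other T cells in the pooled sums. Gamma-delta T and other T cells, those T cells that met no subset gate, could not be told apart (1.01, 0.972 to 1.04). The gap between neutrophils and classical monocytes was 1.17-fold in WT and 1.79-fold in the other library.

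**Figure D1:**
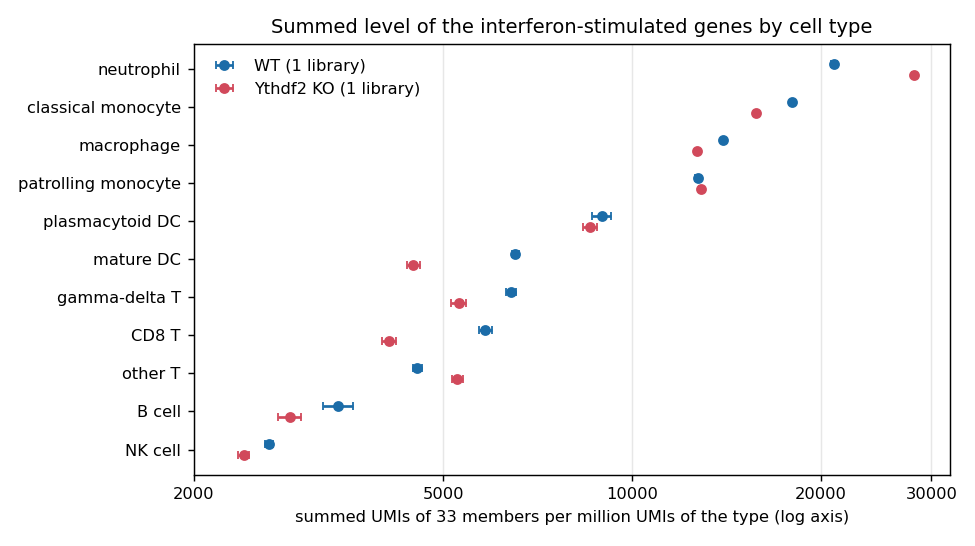
Summed CPM of the 33 members (log axis) in each of 11 cell types, for the WT library (blue) and the library labelled Ythdf2 KO (red), with exact 95% counting intervals and 1 library per genotype. Neutrophils are highest in both (20985 and 28166 CPM) and NK cells lowest (2639 and 2405 CPM), while mature DC and CD8 T cells lie lower in red.

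Among the 11 types, single members differed in where they peaked. In WT, 17 of the 33 were highest in classical monocytes, 12 in neutrophils, 3 in plasmacytoid DC and 1 in patrolling monocytes. In the other library neutrophils led for 22 members and classical monocytes for 7. The peak was in the same type in both libraries for 22 members. Bst2, the membrane tether of budding viruses, reached 3660 CPM (WT) and 3583 CPM in plasmacytoid DC. In any other of the 11 types it was at most 1012 CPM. Stat2 and Ifi44 also peaked in plasmacytoid DC in both libraries. Rsad2, which makes an antiviral nucleotide, held the most UMIs of any member in neutrophils at 4137 and 5958 CPM, and NK cells had 111 and 147 CPM of it.

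**Figure D2:**
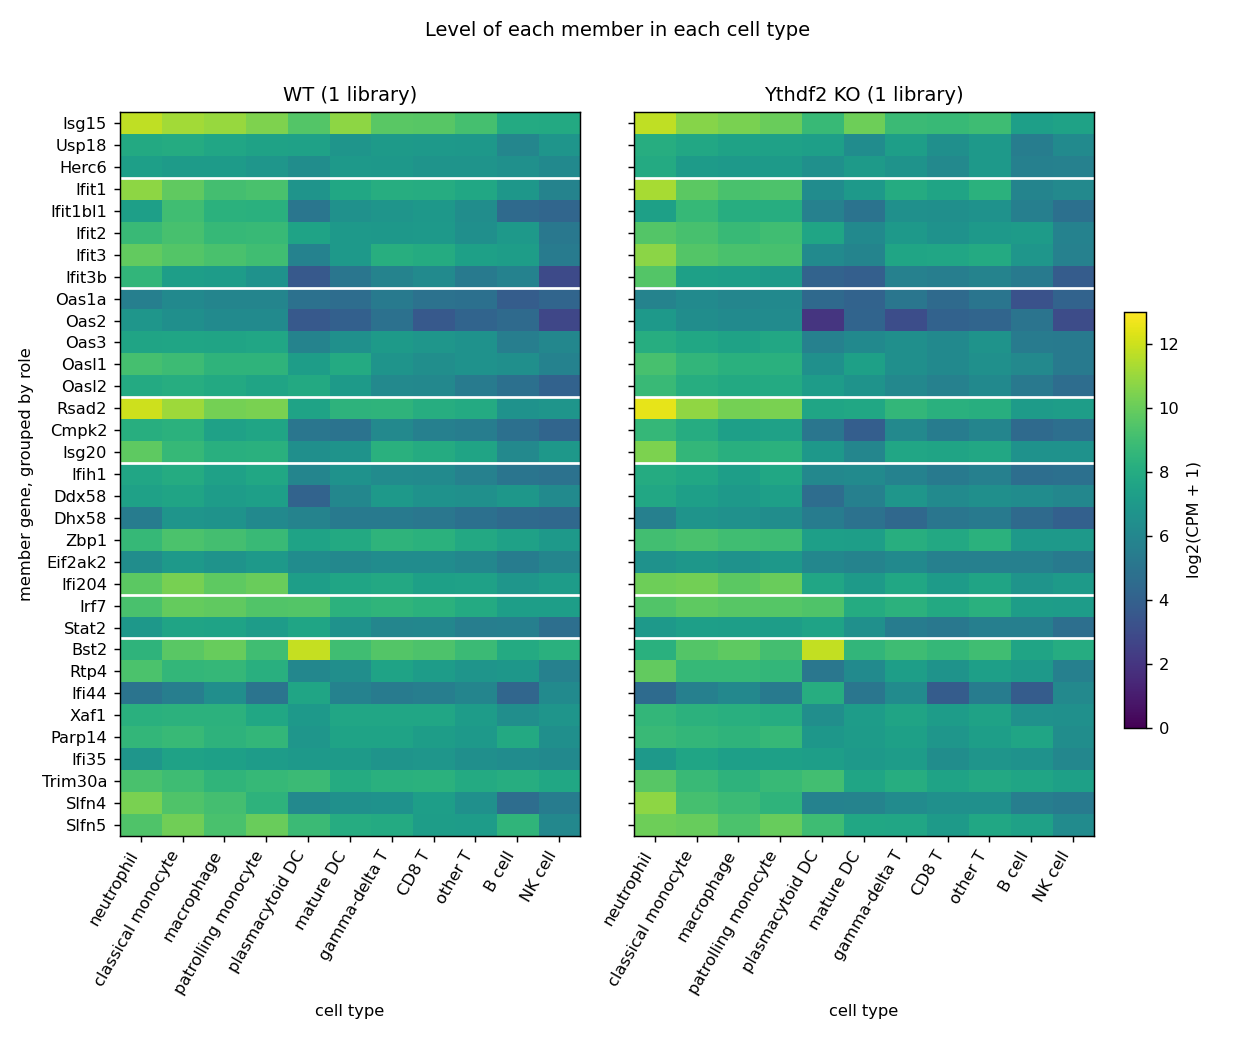
Level of each of the 33 members (rows, grouped by role) in each of 11 cell types (columns), as log2(CPM + 1), in 1 library per panel. Rsad2 and Isg15 are brightest in neutrophils and Bst2 in plasmacytoid DC (3660 CPM in WT), and the NK cell column is dark for most members.

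Neutrophils held more of the programme in the library labelled Ythdf2 KO. The summed level was 20985 CPM in 601 WT cells and 28166 CPM in 1032 cells, 1.34-fold higher (1.32 to 1.36). Of the 33 members 31 had a ratio above 1 and 8 were at least 1.5-fold higher, beside 2.12% of the 3530 genes with at least 100 UMIs in neutrophils. None was 1.5-fold lower, beside 4.53% of genes. The median log2 ratio was 0.36 over members and -0.06 over all those genes.

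Ifit3b and Ifit3 had the highest neutrophil ratios of the members. They belong to the IFIT family, proteins that bind foreign RNA and block its translation. Ifit3b stood at 373 and 736 CPM (1.97-fold), Ifit3 at 939 and 1732 CPM (1.84-fold), Ifit2 at 452 and 740 CPM (1.63-fold) and Ifit1 at 1760 and 2510 CPM (1.43-fold). Ifit1bl1, a relative of Ifit1, was level at 162 and 169 CPM. The family therefore held 3 of the 8 members past 1.5-fold, and its reads are partly shared between Ifit3 and Ifit3b.

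Among the enzymes, the oligoadenylate synthase family member Oasl2 was at 246 and 452 CPM (1.83-fold), while Oasl1, a repressor of Irf7 translation, was level at 568 and 586 CPM. The RNA exonuclease Isg20 was at 887 and 1382 CPM (1.56-fold). Rsad2 and the nucleotide kinase Cmpk2 were each 1.44-fold higher. Sensors of foreign nucleic acid were higher by less: the RNA sensors Ifih1 and Ddx58 by 1.28-fold and 1.29-fold, Zbp1, a sensor of Z-form nucleic acid, by 1.29-fold, and none of the 6 passed 1.5-fold. Slfn5 of the Schlafen family (692 and 1103 CPM, 1.59-fold), the Isg15 ligase Herc6 (162 and 247 CPM, 1.52-fold) and Rtp4 (632 and 952 CPM, 1.51-fold) complete the 8. Bst2 (355 and 305 CPM) and Ifi44 (30.9 and 22.6 CPM) were the only members below 1.

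Over all cells of the neutrophil gate, which asks for 4 of 9 markers in a cell, each of the 9 was detected, at a summed 105326 CPM in WT and 94658 CPM in the other library. Markers of macrophages, all 10 of them detected, summed to 963 and 636 CPM in these cells, and the 9 markers of classical monocytes to 5307 and 5260 CPM. Median depth was 1918 and 1730.5 UMIs. With gates that allow no UMI of the C1q genes or of lymphocyte genes, the summed ratio was 1.31. Leaving out the 8% of barcodes with the highest doublet scores gave 1.24, and the count of 8 was then 4. After thinning each cell to 1000 UMIs the count was 5, and Herc6, Isg20 and Rtp4 were under 1.5-fold with all 3 of these settings. Whether these shifts in other markers bear on the ratio was not tested.

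Related gene lists did not all share the neutrophil difference. Of 34 measured genes on a list of other type I interferon-induced genes, 1 was 1.5-fold higher, Ifi27l2a at 2892 and 5141 CPM, and the list's median log2 ratio was 0.06. Among 13 measured genes of the interferon gamma and GTPase list, 3 were higher: the T cell-attracting chemokines Cxcl9 (38.3 and 109 CPM) and Cxcl10 (1144 and 1777 CPM) and the GTPase Ifi47 (280 and 468 CPM), with a list median of 0.39. No receptor (5 measured), signalling gene (4 measured) or negative regulator (5 measured) was past 1.5-fold in neutrophils. The receptor chains Ifnar1 and Ifnar2 were at 0.917 and 0.929 of WT.

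Mature DC, migratory cells marked by Ccr7 and Fscn1, went the other way. The summed level was 6517 CPM in 508 WT cells and 4482 CPM in 242 cells, a ratio of 0.688 (0.669 to 0.707). Of 32 members measured, 31 had a ratio below 1 and 12 were at least 1.5-fold lower, beside 4.47% of 4695 genes. No member was 1.5-fold higher, beside 1.92% of genes, and the median log2 ratio was -0.49 over members and -0.03 over all genes.

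All 5 IFIT genes were among the 12. Ifit1bl1 stood at 94.2 and 30.0 CPM (0.318), Ifit3b at 33.5 and 14.3 CPM (0.428), Ifit3 at 130 and 56.6 CPM (0.437), Ifit2 at 130 and 72.2 CPM (0.556) and Ifit1 at 211 and 131 CPM (0.620). All 3 nucleotide or RNA enzymes were also past the fold, with Cmpk2 at 30.4 and 13.6 CPM (0.449), Isg20 at 103 and 62.0 CPM (0.601) and Rsad2 at 334 and 213 CPM (0.637). Isg15, the ubiquitin-like protein that is attached to other proteins, held the most UMIs here at 1795 and 1103 CPM (0.615). Ifi44 (0.622), Slfn4 (0.606) and Zbp1 (0.664) make up the rest. Herc6 was the 1 member above 1, at 125 and 136 CPM.

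Of the other type I interferon-induced genes, 7 of 32 measured in mature DC were 1.5-fold lower and none higher, among them Daxx (102 and 57.3 CPM) and Sp100 (220 and 142 CPM), 2 proteins of nuclear bodies. The interferon gamma and GTPase list had 5 of 14 lower, with Cxcl10 at 313 and 136 CPM. Mature DC markers were all detected (5892 and 6818 CPM in sum). Classical monocyte markers summed to 1349 and 855 CPM in these cells, with Mgst1 at 0 UMIs in the library labelled Ythdf2 KO, and macrophage markers to 434 and 294 CPM, and their part was not tested. With the strict gates the summed ratio was 0.677, and after leaving out the highest doublet scores 0.714. The count of 12 was 7 with that doublet setting and also 7 after thinning.

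CD8 T cells, the cytotoxic T cells, also had lower levels. The summed level was 5839 CPM in 125 WT cells and 4096 CPM in 137 cells, a ratio of 0.702 (0.677 to 0.727). Of 29 members measured, 28 were below 1 and 10 at least 1.5-fold lower, beside 3.80% of 3183 genes, and none was higher, beside 4.08%. The median log2 ratio was -0.46 over members and 0.04 over all genes.

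The 10 were spread over the roles. Isg15 was at 796 and 426 CPM (0.535), the RNA sensor Ifih1 at 73.8 and 40.5 CPM (0.549), Stat2 at 64.3 and 36.3 CPM (0.565), Slfn4 at 158 and 90.1 CPM (0.570) and Trim30a at 313 and 184 CPM (0.587). Bst2 stood at 668 and 405 CPM (0.607). The RNA-activated kinase Eif2ak2 (0.625), Ifit3b (0.625), Oas3 (0.627) and Herc6 (0.653) complete them. Rsad2 was the member above 1, at 272 and 302 CPM.

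In the same CD8 T cells 12 of 27 other type I interferon-induced genes were 1.5-fold lower, from Ifi208 at 114 and 53.8 CPM to Phf11b at 244 and 160 CPM, and none was higher. Ifng, the gene of interferon gamma, was at 737 and 1531 CPM (2.08-fold). The 7 T cell markers summed to 4252 and 4606 CPM in these cells, the 10 macrophage markers to 561 and 601 CPM, the 9 classical monocyte markers to 4353 and 3610 CPM and the neutrophil markers to 103 and 327 CPM, with Mmp9 at 0 UMIs in WT. Median depth was 6211 and 7875 UMIs, and the part of these shifts in the result was not tested. With the strict gates, which left 64 and 59 cells, the summed ratio was 0.513. The count of 10 was 17 without the highest doublet scores and 2 after thinning, where fewer members reach 100 UMIs. No share over all genes was counted under either setting.

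**Figure D3:**
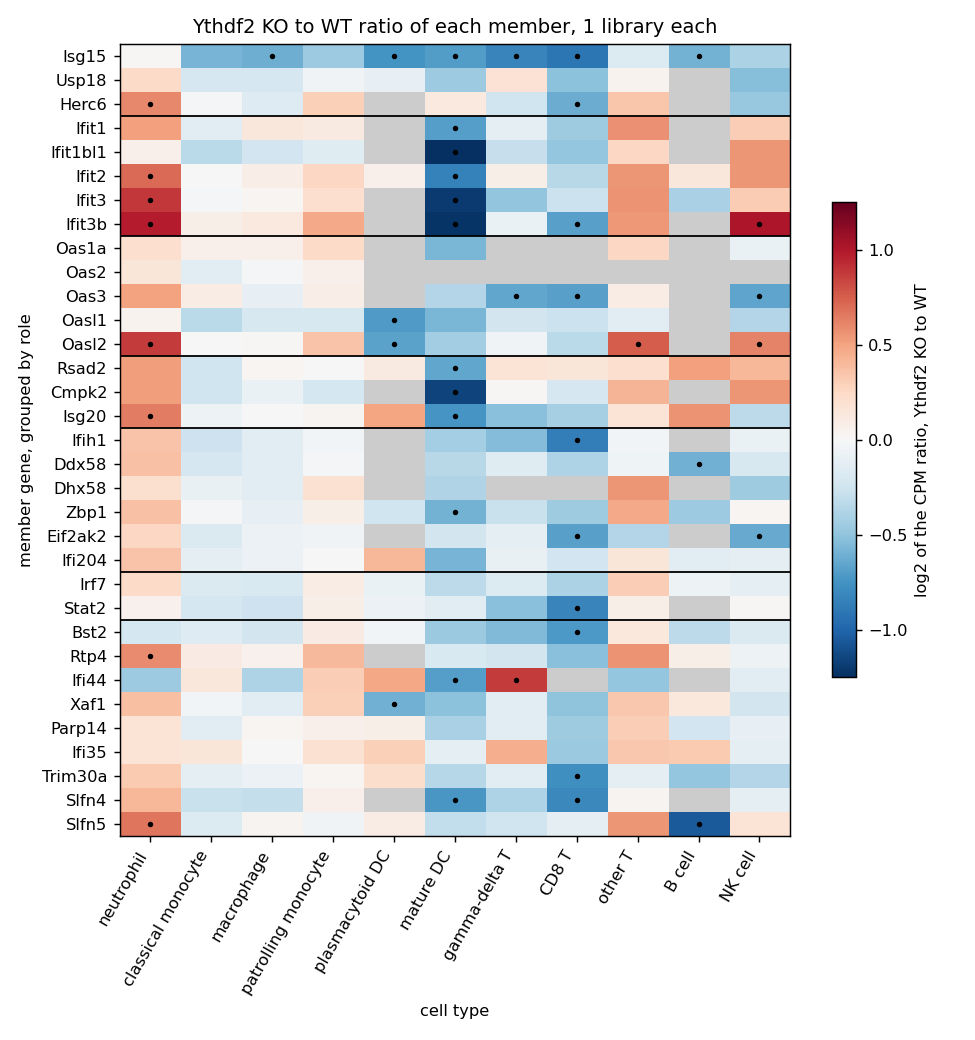
Log2 of the CPM ratio of the library labelled Ythdf2 KO to WT for each member (rows, grouped by role) in each of 11 cell types (columns). Red is higher and blue lower, black dots mark ratios past 1.5-fold, and grey cells had under 100 UMIs over both libraries. The neutrophil column has 8 dots on red, the mature DC column 12 and the CD8 T column 10 on blue.

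The large monocyte and macrophage populations differed by less. In classical monocytes, the precursors that enter tumours from blood, the sum was 17954 CPM in 3821 WT cells and 15743 CPM in 2786 cells (0.877, 0.873 to 0.881). No member passed 1.5-fold in either direction, beside 0.976% of genes higher and 2.46% lower. In macrophages the sum was 13958 and 12671 CPM (0.908, 0.904 to 0.911), and 1 of 33 members, Isg15, was 1.5-fold lower, beside 2.96% of genes, with none higher, beside 1.52%. Macrophage markers summed to 3521 and 2486 CPM in classical monocytes. In macrophages they summed to 11268 and 9159 CPM, and neutrophil markers to 2478 and 3477 CPM; all markers of both lists were detected, and their part was not tested. In patrolling monocytes the sums were 12721 and 12885 CPM (1.01, 1.00 to 1.03), no member was past the fold, beside 2.43% of genes higher and 2.68% lower, and the ratio was 0.971 with the strict gates.

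The remaining lymphocytes and plasmacytoid DC were mixed. In gamma-delta T cells the summed ratio was 0.826 (0.798 to 0.854), with 2 of 30 members lower (Isg15 and Oas3), beside 5.53% of genes, and Ifi44 higher, beside 2.14%. The count of 2 lower was 12 without the highest doublet scores, 16 without barcodes over 20000 UMIs, 9 with the strict gates and 7 after thinning, with summed ratios between 0.649 and 0.689. The share over all genes was not counted under these settings, so these counts cannot be set beside one. NK cell markers in these cells summed to 755 and 1340 CPM, and their part was not tested. In the other T cells it was 1.16 (1.13 to 1.19), with Oasl2 higher at 41.7 and 70.5 CPM, beside 3.28% of genes, and none lower, beside 2.97%. Other markers moved with the sum in these cells: the 9 classical monocyte markers stood at 2604 and 3344 CPM, the 9 neutrophil markers at 145 and 224 CPM (Cxcr2 at 0 UMIs in the library labelled Ythdf2 KO) and the 7 T cell markers at 2244 and 3366 CPM, and their part was not tested. Without the highest doublet scores 8 members were higher, with no share over all genes counted under that setting. This direction rests on the gates, since the ratio was 0.982 (0.943 to 1.02) with the strict ones.

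NK cells had a summed ratio of 0.911 (0.889 to 0.934), with Ifit3b and Oasl2 higher, beside 1.22% of genes, and Oas3 and Eif2ak2 lower, beside 2.88%. Neither higher call was kept after thinning, where Ifit3b was at 1.04 and Oasl2 at 1.08. No member was counted as higher without the highest doublet scores either. Oasl2 was then under the fold, while Ifit3b stayed past it but had too few UMIs to be counted. Ifit3b had 47 and 53 UMIs in NK cells in the main setting. B cells stood at 0.837 (0.781 to 0.897), with 3 of 16 members lower (Isg15, Ddx58 and Slfn5), beside 4.13%, and none higher, beside 3.26%. Slfn5 in B cells was at 358 and 172 CPM (0.481), and at a ratio of 0.806 after thinning, where Isg15 was at 0.459 and Ddx58 at 0.522 but no member reached 100 UMIs and none could be called. The 9 classical monocyte markers summed to 2677 and 1634 CPM in B cells, and their part in the result was not tested. Plasmacytoid DC, of which there were 68 and 118, had a ratio of 0.957 (0.916 to 1.00), with Isg15, Oasl1, Oasl2 and Xaf1 of 18 measured members lower, beside 4.87%, and none higher, beside 3.68%. The direction of Oasl1 turned without the highest doublet scores (1.01) and with the strict gates (1.23), and Oasl2 was under the fold in 3 of 9 settings. The count of 4 was 1 after thinning, where 3 members reached 100 UMIs, with the strict gates and without barcodes over 20000 UMIs.

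Counted over all 11 types, 321 pairs of member and type had at least 100 UMIs, of which 12 were 1.5-fold higher and 34 lower, beside 2.01% and 3.32% of the 57771 such pairs over all genes. Of the members, 8 were past the fold in no type: Usp18, which strips Isg15 from proteins, Oas1a, Oas2, Dhx58, Ifi204, Irf7, Parp14 and Ifi35. Irf7, the transcription factor that amplifies interferon production, lay between 0.761 in CD8 T cells and 1.24 in the other T cells.

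Isg15 stood apart from the rest of the list. In each of the 11 types its ratio was below the median of the other members, and it was the lowest of all in 6: classical and patrolling monocytes, macrophages, plasmacytoid DC, CD8 T and gamma-delta T cells. Its level was 2350 CPM in WT and 1572 CPM in classical monocytes (0.669), 2043 and 1337 CPM in macrophages (0.655), and 1443 and 1055 CPM in patrolling monocytes (0.731).

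In neutrophils Isg15 was level at 3447 and 3494 CPM (1.01, 0.980 to 1.05) while the other members had a median log2 ratio of 0.36, a distance of -0.35. The distance to the others' median was -0.45 on the log2 scale in the middle of the 11 types, and ran from -0.82 in plasmacytoid DC to -0.23 in mature DC. The member next in line, Oasl1, had a middle distance of -0.24 and was below the others in 9 of 10 types. Rtp4 and Ifit3b were at the opposite end, with middle distances of 0.24 and 0.21.

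Without Isg15 the summed ratio was 1.41 in neutrophils, 0.951 in macrophages and 0.908 in classical monocytes. The direction in these 3 types does not rest on that gene. Isg15 held 16.4% of the members' UMIs in WT neutrophils and 12.4% in the other library, and in mature DC 27.5% and 24.6%. Isg15 stayed below the others' median in all 11 types under 8 other settings, and after thinning in each of the 10 types that could be measured.

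**Figure D4:**
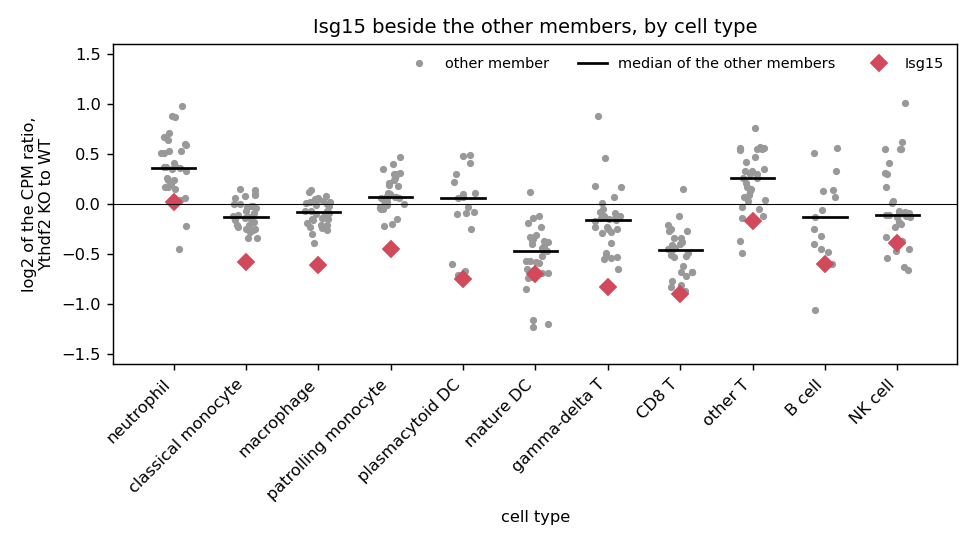
Log2 CPM ratio of the library labelled Ythdf2 KO to WT for Isg15 (red diamonds) and for each other member with at least 100 UMIs (grey points, black line at their median) in 11 cell types. The diamond lies below the line in every type, farthest in plasmacytoid DC (-0.82) and nearest in mature DC (-0.23).

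In distinct members per neutrophil, the difference was larger in the middle of the spread of cells than at the tenth percentile or the upper quartile. Each cell was thinned to 1000 UMIs at random, leaving out 19 WT and 67 neutrophils of the other library that were shallower, and the number of distinct members with a UMI was counted. The median neutrophil held 8 members in WT and 12 in the library labelled Ythdf2 KO. At least 10 were found in 45.5% of WT neutrophils (41.4 to 49.7) and 62.7% of the others (59.6 to 65.8), against 63.6% and 76.7% without thinning. At the low end, the tenth percentile was 2 members in WT and 4 in the other library. The upper quartile was 14 members in WT and 16 in the other library.

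Classical monocytes went from 56.3% to 50.7% of cells with at least 10 members and macrophages from 47.2% to 42.4%. In mature DC the share was 11.7% (9.02 to 14.9) and 4.22% (2.04 to 7.62), and in CD8 T cells 14.5% (8.84 to 22.0) and 5.84% (2.55 to 11.2). NK cells, the type with the lowest sum, stood at 2.89% and 3.71%. Their share with no member was 16.0% (13.5 to 18.8) in WT and 26.2% (22.2 to 30.5) in the other library. No type here is known to lack these genes, so the share that free RNA in the droplets gives could not be read, and its part was not tested.

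**Figure D5:**
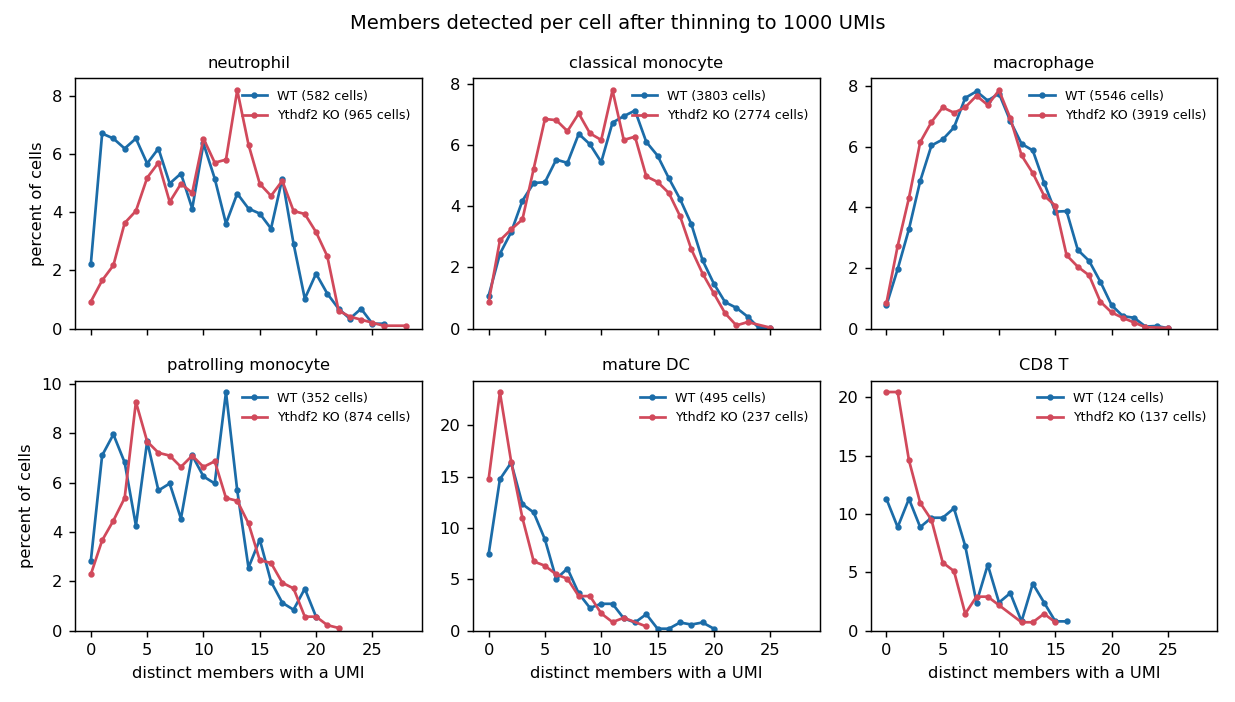
Percent of cells (y axis) by the number of distinct members with a UMI (x axis) after each cell was thinned to 1000 UMIs, for 6 cell types, with the WT library in blue and the library labelled Ythdf2 KO in red. The red neutrophil curve lies to the right of the blue one (medians 12 and 8), and the red mature DC and CD8 T curves are shifted to the left.

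Levels of different members also went together from cell to cell, with the highest median in neutrophils in both libraries. Over 325 pairs of members in thinned cells, the median Pearson correlation across neutrophils was 0.23 in WT (582 cells) and 0.19 in the other library (965 cells). The closest pair in both was Ifit1 with Rsad2, at 0.68 and 0.67. The next medians were 0.14 in mature DC in WT (153 pairs) and 0.17 in other T cells in the other library (171 pairs). The pairs compared differ between types. In macrophages and classical monocytes the median was about 0.10 (0.102 and 0.109 in WT). All cells of a type share 1 library, and these values are descriptions of sparse counts.

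The interferons themselves were nearly absent from the counts. All 17 type I interferon genes searched were in the tables, and together they had 66 UMIs in WT and 55 in the other library. Ifnb1, the interferon made early by many cell types, had 57 UMIs in 21 WT cells and 30 UMIs in 15 cells. Macrophages held 16 and 7 of these UMIs and classical monocytes 6 and 9. Which cells made the interferon cannot be read at this depth.

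The 10 genes outside the list whose level followed the summed members most closely across the 11 types were Slc15a3, Cd300lf, Gpr35, B430306N03Rik, Lamp2, Tnfrsf1a, Trib1, Myd88, Chmp4b and A530064D06Rik. The lower of their 2 Pearson correlations, 1 per library over 11 types of log2(CPM + 1), ran from 0.970 for Slc15a3 to 0.929 for A530064D06Rik. The points of each library share that library, and no p-value is attached.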

How the data were processed

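The members and gene lists were chosen with earlier results of these data known. The authors deposited raw UMI counts per gene and barcode, without normalization, as whole numbers; Cell Ranger 5.0.1, Seurat 4.0.4 and build mm10 are named per the submitters' processing notes and Cell Ranger 6.1.1 per the file headers, a conflict that was not resolved. Barcodes with at least 500 UMIs, 200 genes and at most 10% mitochondrial UMIs were kept. Each type needed 3 or 4 marker genes of its list with a UMI, with limits on UMIs of other lineages, such as the C1q genes, in some gates; barcodes meeting 2 gates (14.7% and 14.0%) or none (22.4% and 19.7%) were left out, and no doublet caller was used in the main analysis. UMIs were summed per type and library and divided by the type's total (CPM). Ratios carry exact conditional binomial intervals, CPM exact Poisson ones and shares exact Clopper-Pearson ones, at 95%, for counting error only. Genes with at least 100 UMIs over both libraries in a type were measured, and 1.5-fold was the limit of a call. All members, all genes of the pathway lists and the 10 genes of most similar pattern could be named. Alternatives were stricter filters and gates, 2 other scalings, thinning, doublet removal with Scrublet in scanpy 1.11.5, and other limits. The call was tried on simulated Poisson counts with known changes, drawn from 1 profile per type without variation between cells or libraries. That checks the calculation only, not how far libraries differ. Python 3.11.15, numpy 2.4.6, scipy 1.17.1 and pandas 2.3.3 were used. Values of 1 pathway gene are not reported here.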

Additional observations from a re-analysis of the deposited data

Results flagged for a closer look

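Of the members, 8 were past 1.5-fold in opposite directions in different cell types. The share of all genes that were so was not counted. The ratio of the library labelled Ythdf2 KO to WT is given for the highest and lowest type in turn; the difference between types was not tested, since each genotype has 1 library. Ifit3b was at 2.01 in NK cells, a value that was 1.04 after thinning, and 0.428 in mature DC. Ifit3 was at 1.84 in neutrophils and 0.437 in mature DC. Ifit2 was at 1.63 in neutrophils and 0.556 in mature DC. Isg20 was at 1.56 in neutrophils, past the fold in 6 of 9 settings, and 0.601 in mature DC. Oasl2 was at 1.83 in neutrophils and 0.627 in plasmacytoid DC, Herc6 at 1.52 in neutrophils and 0.653 in CD8 T cells, and Slfn5 at 1.59 in neutrophils and 0.481 in B cells. Of these, Oasl2 in plasmacytoid DC and Herc6 in neutrophils were past the fold in 6 of 9 settings. Slfn5 in B cells was at 0.806 after thinning. Ifi44 was at 1.84 in gamma-delta T cells and 0.622 in mature DC. The summed members gave 1.34 in neutrophils and 0.688 in mature DC.

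Barcodes outside the comparisons carried the members as well. Those that met 2 gates held a summed 11348 CPM (WT) and 10820 CPM, and those that met none 6566 CPM (WT) and 6853 CPM.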

How the results depend on the processing

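The neutrophil sum stayed higher in the library labelled Ythdf2 KO under all 10 settings tried (1.24 to 1.42), and the sums of mature DC (0.656 to 0.732), CD8 T cells (0.513 to 0.728), classical monocytes (0.860 to 0.908) and macrophages (0.867 to 0.951) stayed lower. Of 46 member and type pairs past 1.5-fold, 23 were past it in all 9 settings; Oasl1 in plasmacytoid DC reversed, at 1.01 without the highest doublet scores and 1.23 with strict gates. The comparison of Isg15 with the other members, and its repeat under each setting, was chosen after seeing the data. Both scalings moved the median of all genes by less than 0.1 (log2) in each type. The settings that moved values follow, and the cause was not tested except where fewer UMIs or another fold change what can be counted. Shares over all genes were counted for the main setting and the lower call limit only, so other counts of members below have no share beside them. No paired analysis was possible because each genotype has 1 library.

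A mitochondrial limit of 5% gave a neutrophil sum ratio of 1.37, 2 higher members in other T cells and 1 in NK cells, and at least 1000 UMIs and 500 genes gave 1.37 in neutrophils. Median-of-ratios scaling gave sum ratios of 1.40 in neutrophils, 0.951 in macrophages and 0.939 in NK cells, with 0 lower members in macrophages and 5 higher and 1 lower in NK cells. Totals without the 100 top genes and members gave 1.40 in neutrophils and 0.873 in classical monocytes, where 1 member was lower.

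Thinning to 1000 UMIs gave sums of 1.27 in neutrophils, 0.964 in patrolling monocytes (reversed), 0.883 in macrophages, 0.656 in mature DC, 0.902 in plasmacytoid DC, 0.622 in CD8 T, 0.649 in gamma-delta T, 1.08 in other T, 0.798 in NK and 0.901 in B cells. Members higher were then 5 in neutrophils, 1 in patrolling monocytes and 0 in gamma-delta T and NK cells, and members lower 0 in macrophages and B cells, 7 in mature DC, 1 in plasmacytoid DC, 2 in CD8 T, 7 in gamma-delta T and 4 in NK cells.

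Without the 8% highest doublet scores the sums were 1.24 in neutrophils, 0.860 in classical monocytes, 0.970 in patrolling monocytes (reversed), 0.888 in macrophages, 0.714 in mature DC, 0.899 in plasmacytoid DC, 0.630 in CD8 T, 0.689 in gamma-delta T, 1.22 in other T, 0.860 in NK and 0.678 in B cells. Members higher were 4 in neutrophils, 8 in other T and 0 in NK cells, and lower 1 in classical monocytes, 7 in mature DC, 2 in plasmacytoid DC, 17 in CD8 T and 12 in gamma-delta T cells. This setting removed 25.8% (WT) and 26.5% of the barcodes that met 2 gates.

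Without barcodes over 20000 UMIs the sums were 1.42 in neutrophils, 0.889 in macrophages, 0.732 in mature DC, 1 in plasmacytoid DC (reversed), 0.677 in CD8 T, 0.670 in gamma-delta T and 1.11 in other T cells, with lower members 1 in plasmacytoid DC, 16 in gamma-delta T, 1 in other T and 1 in B cells. Strict gates gave 1.31 in neutrophils, 0.864 in classical monocytes, 0.971 in patrolling monocytes (reversed), 0.867 in macrophages, 0.513 in CD8 T, 0.676 in gamma-delta T, 0.982 in other T (reversed), 0.864 in NK and 0.770 in B cells. Members higher were then 1 in plasmacytoid DC and 0 in other T, and lower 1 in plasmacytoid DC, 9 in gamma-delta T, 3 in other T, 4 in NK and 1 in B cells.

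The sum without Isg15 was 1.41 in neutrophils, 0.908 in classical monocytes, 1.05 in patrolling monocytes, 0.951 in macrophages, 0.716 in mature DC, 0.728 in CD8 T, 0.863 in gamma-delta T and 1.20 in other T cells. At a lower call limit, a log2 ratio of 0.32 in either direction, higher members were 19 in neutrophils (beside 9.07% of genes), 3 in patrolling monocytes (10.8%), 3 in plasmacytoid DC (15.4%), 2 in gamma-delta T (10.0%), 13 in other T (11.8%), 6 in NK (6.12%) and 3 in B cells (195 of 1503 genes). Lower members were then 1 in neutrophils (17.1% of genes), 3 in classical monocytes (9.81%), 1 in patrolling monocytes (11.1%), 2 in macrophages (12.6%), 26 in mature DC (14.2%), 23 in CD8 T (13.9%), 8 in gamma-delta T (16.6%), 2 in other T (12.5%), 9 in NK (12.7%) and 7 in B cells (13.4%). A minimum of 20 UMIs gave 1 higher in plasmacytoid DC, 4 lower in gamma-delta T, and 2 higher and 5 lower in B cells, and leaving out shared barcodes 1 higher in NK and 1 in B cells. The fewest members reached 100 UMIs in plasmacytoid DC (18) and B cells (16), the types with the fewest UMIs in total.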
